A study of Homo sapiens with 4 samples.

Results

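The aldo-keto reductases described here were 10 genes of Hep-G2 cells, AKR1A1, AKR1B1, AKR1B10, AKR1C1, AKR1C2, AKR1C3, AKR1C4, AKR1D1, AKR7A2 and AKR7A3, taken by gene symbol from the 62893 genes of the read-count tables. All 10 were found by their Ensembl identifiers. Hep-G2 is a line derived from a human hepatoma and widely used as a hepatocyte model. One line carried a scramble shRNA (clone SHC002) and the other an shRNA against FTO (clone TRCN0000246247), each at passage 21. FTO is an enzyme that removes methyl groups from RNA. Both lines carried an shRNA, only a single FTO shRNA was used, and whether the lines were clones or pools of cells was not stated in the labels. Each group had 2 replicate tables of total RNA, termed runs here, with 20047409 and 20474554 counted reads in scramble and 20220271 and 20706611 in shFTO.

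Aldo-keto reductases use NADPH to reduce aldehydes and ketones to alcohols. In liver they handle steroids, prostaglandins, bile acid precursors, sugars and reactive aldehydes. The AKR1C enzymes are hydroxysteroid dehydrogenases encoded by neighbouring, near-identical genes. Several members, AKR1B10 and the AKR1C genes among them, are known as targets of NRF2, the transcription factor of the oxidative stress response.

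The 2 runs of a group differed by no more than sampling noise. A chi-square test of their counts gave 1.019 per degree of freedom over 13359 genes for the scramble runs, with p = 0.0648. For the shFTO runs the chi-square test gave 1.013 over 13674 genes, with p = 0.142. Pairs of 1 scramble and 1 shFTO run gave 118 to 120 by the same measure. The labels do not say that the runs came from separate cultures, so the runs of a group were counted as 1 sample and summed. Ratios below are therefore shFTO over scramble with 1 sample per group, with no replicate check. Levels are counts per 1000000 reads (CPM) after TMM scaling, which corrects each library's size for its composition. Each interval is an exact Clopper-Pearson 95% interval of the split of reads, and covers counting error only. FTO itself had 594 and 550 reads in scramble and 116 and 128 in shFTO, a level 5.32-fold lower (4.63 to 6.13).

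The members together rose from 0.095% and 0.096% of all reads in the scramble runs to 0.232% and 0.231% in the shFTO runs. Their summed level was 1008 and 1021 CPM in scramble and 2194 and 2174 CPM in shFTO. AKR1C1, AKR1C2 and AKR1B10 rose by at least 2-fold in shFTO and AKR1D1 fell by at least that much, while AKR1A1, AKR1B1, AKR1C3 and AKR7A2 changed by less than 1.5-fold. AKR1C4 and AKR7A3 had too few reads to be tested. Thus 3 of the 8 tested members passed 2-fold upward, against 5.18% of the 13767 genes tested, and 1 passed it downward, against 6.19%. Of the 3, AKR1C1 and AKR1C2 are near-identical copies. These shares are no test, since the members were chosen with earlier results of these data known. The median log2 ratio of the 8 tested members was 0.20, and that of all tested genes was 0.01.

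edgeR's quasi-likelihood test, whose error is the spread between runs, called 5 members higher, against 33.2% of all tested genes. It called 3 lower, against 33.4%. All 8 tested members were thus called, AKR1C1, AKR1C2, AKR1C3, AKR1B10 and AKR1B1 higher and AKR1A1, AKR1D1 and AKR7A2 lower. AKR7A2 lost its call in 6 of 10 alternative fits, AKR1A1 in 1 (plain library size) and AKR1B1 in 1 (DESeq2), and the other 5 lost it in none of the 10. These calls compare the 2 pairs of libraries and not the conditions, and they take in differences as small as 1.08-fold.

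**Figure D1:**
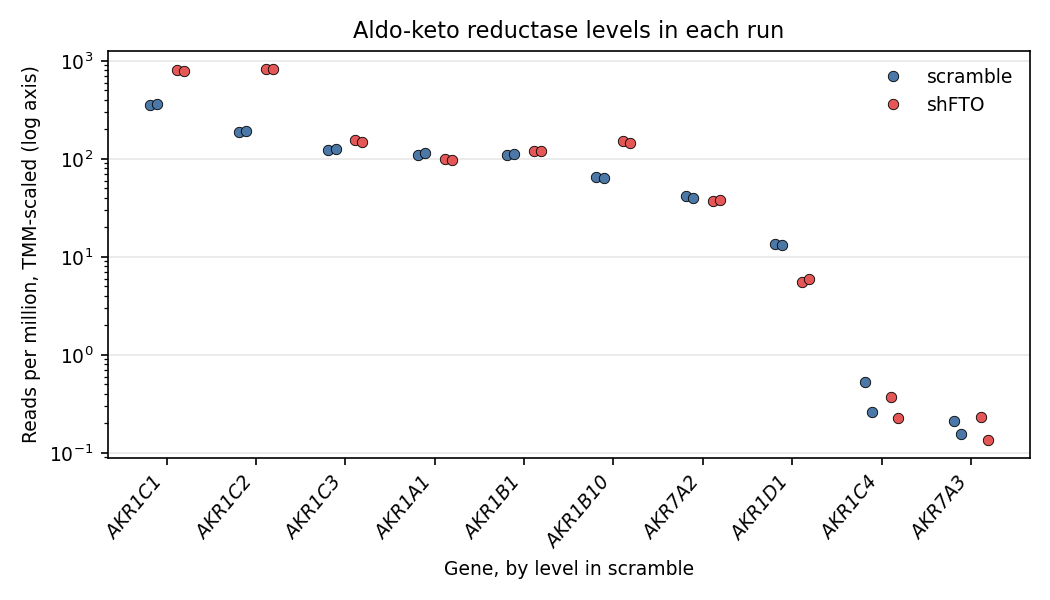
Level of the 10 aldo-keto reductases in each of the 4 runs, in TMM-scaled CPM on a log axis and not divided by length, with 2 points per group (blue scramble, red shFTO). AKR1C1 and AKR1C2 lie at 792 to 823 CPM in shFTO, AKR1D1 is lower in both shFTO runs, and AKR1C4 and AKR7A3 lie under 1 CPM in every run.

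To compare genes, levels were divided by the length of the coding sequence. Reads also fall on untranslated parts, whose length differs between the genes, so this order holds for that divisor. In scramble the order was AKR1C1 (369 CPM per kilobase of coding sequence), AKR1C2 (196), AKR1C3 (128), AKR1B1 (118), AKR1A1 (115), AKR1B10 (68.3), AKR7A2 (38.3) and AKR1D1 (13.7). AKR1C4 (0.405) and AKR7A3 (0.184) stood last. AKR1B1, at 116 and 120 in its runs, and AKR1A1, at 113 and 117, overlapped in this order. In shFTO AKR1C2 stood first (849) and AKR1C1 second (823), followed by AKR1B10 (158), AKR1C3 (157), AKR1B1 (128) and AKR1A1 (101). There the runs of AKR1B10, at 160 and 155, overlapped those of AKR1C3, at 160 and 154. Divided instead by the whole principal transcript in GENCODE, which is 6705 bases for AKR1C1 and 3756 for AKR1C2, the scramble order was AKR1A1 (95.9 CPM per kilobase of transcript), AKR1B1 (79.4), AKR1C3 (68.7), AKR1C1 (53.3), AKR1C2 (50.6) and AKR1B10 (40.7). In shFTO it was AKR1C2 (219), AKR1C1 (119), AKR1B10 (94.0), AKR1B1 (85.9), AKR1A1 (84.4) and AKR1C3 (84.1). AKR1C2 stood first in shFTO by both lengths, whereas the first place in scramble went to AKR1C1 by one and AKR1A1 by the other. Which transcripts the cells made was not measured here.

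The AKR1C genes carried most of the members' reads. AKR1C1 mainly inactivates progesterone, AKR1C2 inactivates dihydrotestosterone and binds bile acids, AKR1C3 forms testosterone and prostaglandin F, and AKR1C4 is the liver form that reduces bile acid precursors. Their coding sequences, 969 bases each without the stop codon, are alike enough that short reads can be shared between them. AKR1C1 and AKR1C2 differ at 19 of these 969 bases (98.0% identical), and 10 of the 19 lie in coding bases 73 to 162, counted from the first base of the start codon and spanning exons 1 and 2. AKR1C3 is 91.4% identical to AKR1C1 and 91.0% to AKR1C2. AKR1C4 is 88.5% and 87.8% identical to them. The stretch is printed because it holds more of the bases that tell AKR1C1 from AKR1C2 than the rest of the coding sequence. Capitals mark the bases that differ between AKR1C1 and AKR1C2 in the first pair of lines, and the bases that differ from AKR1C1 in the last pair (11 in AKR1C3 and 13 in AKR1C4).
AKR1C1: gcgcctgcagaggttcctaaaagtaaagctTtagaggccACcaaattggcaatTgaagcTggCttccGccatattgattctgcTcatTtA
AKR1C2: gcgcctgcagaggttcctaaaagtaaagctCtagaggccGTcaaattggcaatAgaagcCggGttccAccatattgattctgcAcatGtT
AKR1C3: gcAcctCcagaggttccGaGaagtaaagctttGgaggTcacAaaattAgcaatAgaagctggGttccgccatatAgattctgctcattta
AKR1C4: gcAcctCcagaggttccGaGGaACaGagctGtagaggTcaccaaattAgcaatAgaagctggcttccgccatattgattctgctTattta

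Of the 50-base windows of the AKR1C2 coding sequence, 42.9% were found in no other aldo-keto reductase compared, and 73.6% of its 100-base windows. For AKR1C1 these shares were 46.3% and 79.3%, for AKR1C3 77.0% and 90.2%, and for AKR1C4 87.8% and 99.3%. AKR1A1, AKR1B1 and AKR1D1 shared no 50-base window with another member. No window was taken from the untranslated bases, on which reads also fall. The principal transcripts have 6705 bases for AKR1C1 and 3756 for AKR1C2, so these shares leave out most of their length. The read length and the treatment of reads with several alignments are not given in the sources used here. Counts of single AKR1C genes are therefore uncertain in how reads were split or dropped between copies. The places of the AKR1C genes in the orders by length given above carry the same uncertainty.

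**Figure D2:**
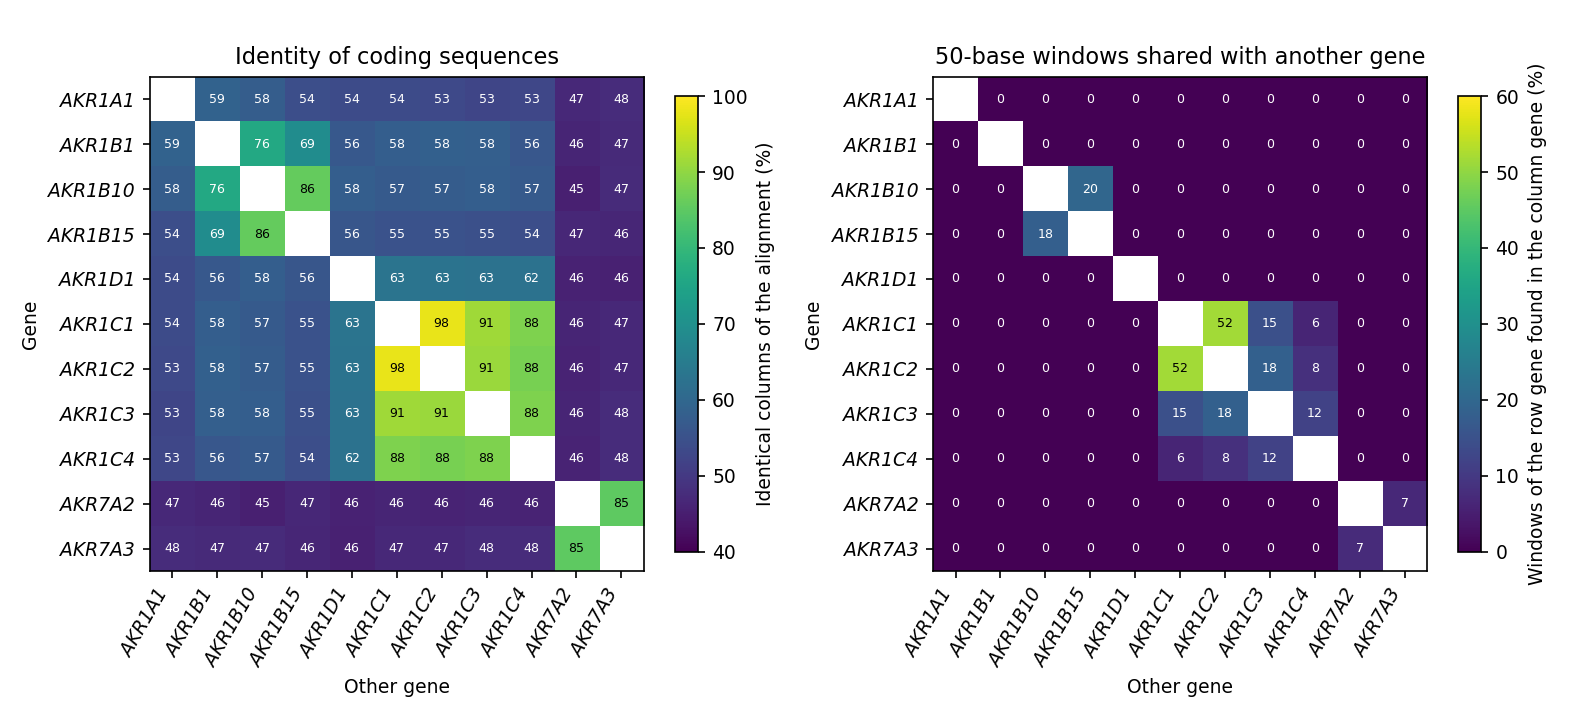
Percent identity of aligned coding sequences (left) and the percent of each row gene's 50-base windows found in the column gene (right), for the members and AKR1B15. AKR1C1 and AKR1C2 share 51.6% of their 50-base windows, and AKR1B10 shares 19.8% of its own with AKR1B15.

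AKR1C2 had 3566 and 3697 reads in scramble and 17616 and 18048 in shFTO, or 189 and 191 CPM against 823 and 822 CPM. The shFTO runs lay above the scramble runs, with no overlap. Runs of the groups did not overlap in any tested member, AKR1B1 with its ratio of 1.08 among them. Since the runs of a group count as 1 sample, a lack of overlap is no replicate check. The ratio of AKR1C2 was 4.33 (4.22 to 4.44), ranked 194 of the 13767 tested genes from the highest, and was the highest among the members. AKR1C1 had 6718 and 6948 reads in scramble and 17176 and 17401 in shFTO, or 355 and 360 CPM against 802 and 793 CPM. Its ratio was 2.23 (2.19 to 2.28), and its runs did not overlap either.

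AKR1C3 had 2322 and 2428 reads in scramble and 3316 and 3275 in shFTO, or 123 and 126 CPM against 155 and 149 CPM. Its ratio was 1.22 (1.18 to 1.27), higher in both shFTO runs and well under 2-fold. AKR1C4 had 10 and 5 reads in scramble and 8 and 5 in shFTO, and its runs overlapped. The ratio of AKR1C4, 0.76 (0.33 to 1.72), does not show a difference at this depth.

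The make-up of the AKR1C reads differed between the groups. AKR1C2 made up 34.7% of the AKR1C1 and AKR1C2 reads in scramble (34.1 to 35.4) and 50.8% in shFTO (50.4 to 51.1). Its share was 34.7% in each scramble run, and 50.6% and 50.9% in the shFTO runs. Of the reads of all 4 AKR1C genes, AKR1C1 held 53.2% in scramble and 45.0% in shFTO. AKR1C3 held 18.5% and 8.58%, so its share was smaller in shFTO although its level was higher. The AKR1C genes held 66.2% of the members' reads in scramble and 81.1% in shFTO.

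Summing copies leaves out any exchange of reads between them. AKR1C1 and AKR1C2 summed had 544 and 551 CPM in scramble and 1624 and 1614 CPM in shFTO, a ratio of 2.96 (2.91 to 3.01). All 4 AKR1C genes summed had 667 and 677 CPM in scramble and 1780 and 1764 CPM in shFTO, a ratio of 2.64 (2.60 to 2.67). The AKR1C genes as a whole were thus more than 2-fold higher in shFTO, however reads were split among the 4. Reads left out of all 4 because they aligned to several copies would still be missing from the sum.

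**Figure D3:**
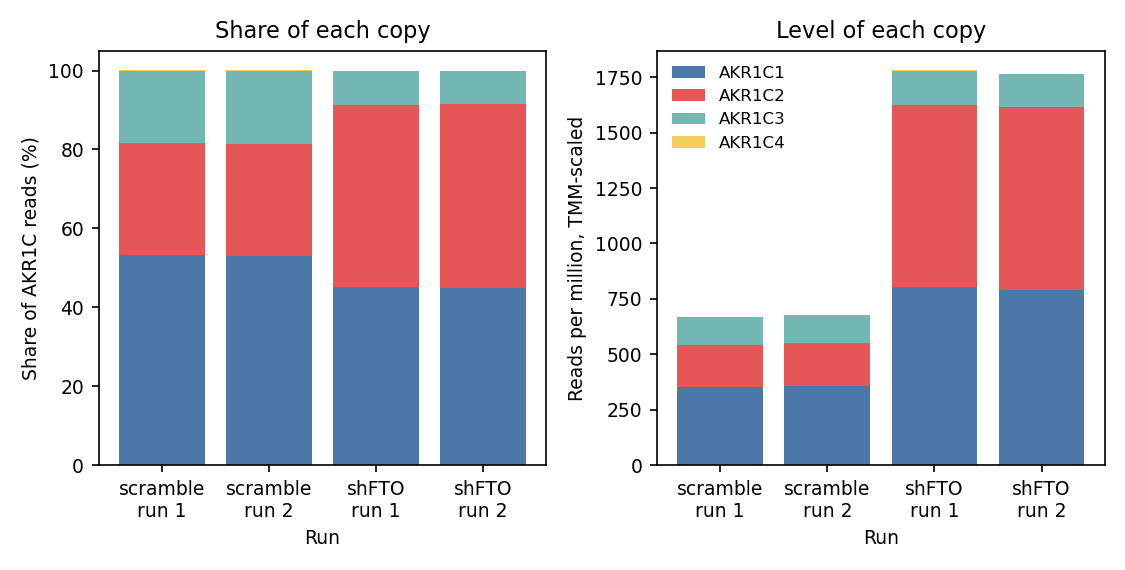
Share of each AKR1C gene in the AKR1C reads, in percent (left), and level of each in TMM-scaled CPM (right), for the 4 runs. AKR1C2 goes from 28.3% of AKR1C reads in both scramble runs to 46.2% and 46.6% in the shFTO runs, while AKR1C4 is too small to be seen.

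The likeness of AKR1C1 and AKR1C2 extends to the bases before their RefSeq starts. In the RefSeq promoter table the 250 bases before the starts of AKR1C1 and AKR1C2 were 96.5% identical. By GENCODE, part of these 250 bases is exon in both genes, so the identity is not of untranscribed bases alone. AKR1C1 was 71.4% and 69.2% identical to the 2 windows of AKR1C3 and 58.7% identical to that of AKR1C4. Counted back from the first exon that begins within each window, the 84 bases that both windows hold before it were the same in both genes at all 84. The stretch is printed for its likeness between the 2 genes, and its part in their ratios was not tested. It carries no capitals since no base differs. In build GRCh38.p14 it lies at chr10:4963169-4963252 on the plus strand for AKR1C1 and at chr10:5004024-5004107 on the minus strand for AKR1C2. GENCODE places it between genes for AKR1C1 and in an intron of a longer AKR1C2 transcript for AKR1C2.
AKR1C1 and AKR1C2 upstream: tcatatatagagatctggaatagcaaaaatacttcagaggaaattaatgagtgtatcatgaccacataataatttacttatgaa

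Both strands of the 250 bases before each start were searched for the letters TGACNNNGC, the core of the antioxidant response element bound by NRF2. The search also took TGANTCA, the AP-1 site with any base allowed at its middle place. The 2 patterns can overlap in sequence. TGACNNNGC occurred in 10.9% of the 35116 promoter windows of the table and TGANTCA in 6.6%. Among the members with a window, TGACNNNGC was found only for AKR7A2, with 3 matches in each of its windows, and TGANTCA for none. These letters were not in the AKR1C windows, which says nothing of sites elsewhere. Part of the AKR1C1 and AKR1C2 windows is exon in GENCODE, as given above. AKR1B10 was not in the promoter table.

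The protein-coding genes on either side of the clusters did not reach 2-fold where they had reads enough to be tested. The AKR1C cluster was taken to include AKR1E2, which had no read in any run. KLF6, a zinc-finger factor gene beside the cluster so taken, had a ratio of 0.95 (0.91 to 0.98). UCN3, on the other side, had no read in scramble and 2 in shFTO. SLC35B4 and BPGM beside the AKR1B genes had ratios of 1.33 and 1.21. MRTO4 and PQLC2 beside AKR7A2 and AKR7A3 had 1.34 and 1.11, PRDX1 and NASP beside AKR1A1 had 0.94 and 0.97, and CREB3L2 and TRIM24 beside AKR1D1 had 0.86 and 0.84.

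AKR1D1, the reductase that saturates the steroid ring in bile acid synthesis and in steroid hormone breakdown, was the member that fell. It had 256 and 257 reads in scramble and 119 and 132 in shFTO, or 13.5 and 13.3 CPM against 5.56 and 6.01 CPM. Both shFTO runs lay below both scramble runs. The level was 2.32-fold lower (1.99 to 2.71), an interval that just takes in a change smaller than 2-fold. The ratio stood at percentile 4.47 of the tested genes.

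AKR1B10, a reductase of retinal and lipid aldehydes, had 1238 and 1237 reads in scramble and 3249 and 3229 in shFTO, or 65.5 and 64.0 CPM against 152 and 147 CPM. The groups did not overlap. Its ratio was 2.31 (2.20 to 2.42), rank 542 of the tested genes. AKR1B15, its closest copy and not one of the 10, is 85.9% identical in coding sequence and had 69 and 62 reads in scramble and 181 and 181 in shFTO, a ratio of 2.44 (1.989 to 2.998). The summed pair had a ratio of 2.31 (2.21 to 2.42), so reads passing between the copies would not alter the ratio of the pair.

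AKR1B1 is aldose reductase, which turns glucose into sorbitol in the polyol pathway. It had 2084 and 2189 reads in scramble and 2589 and 2659 in shFTO, or 110 and 113 CPM against 121 and 121 CPM. The shFTO runs were slightly higher, and the ratio was 1.08 (1.04 to 1.13). AKR1B1 is 76.1% identical to AKR1B10 in coding sequence, but it shared no 50-base window with it.

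AKR1A1, the aldehyde reductase that acts on glucuronate, had 2077 and 2197 reads in scramble and 2117 and 2152 in shFTO. At 110 and 114 CPM against 98.8 and 98.0 CPM, the level was 1.14-fold lower (1.09 to 1.19). With scaling by plain library size this became 1.01-fold lower. AKR7A2, a reductase of succinic semialdehyde and of aflatoxin dialdehyde, had 796 and 779 reads in scramble and 805 and 836 in shFTO. At 42.1 and 40.3 CPM against 37.6 and 38.1 CPM it was 1.09-fold lower (1.02 to 1.17), and with plain library size it was 1.03-fold higher, so its direction depends on the scaling. AKR7A3, a further aflatoxin aldehyde reductase, had 4 and 3 reads in scramble and 5 and 3 in shFTO, with overlapping runs and a ratio of 1.01 (0.32 to 3.26).

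**Figure D4:**
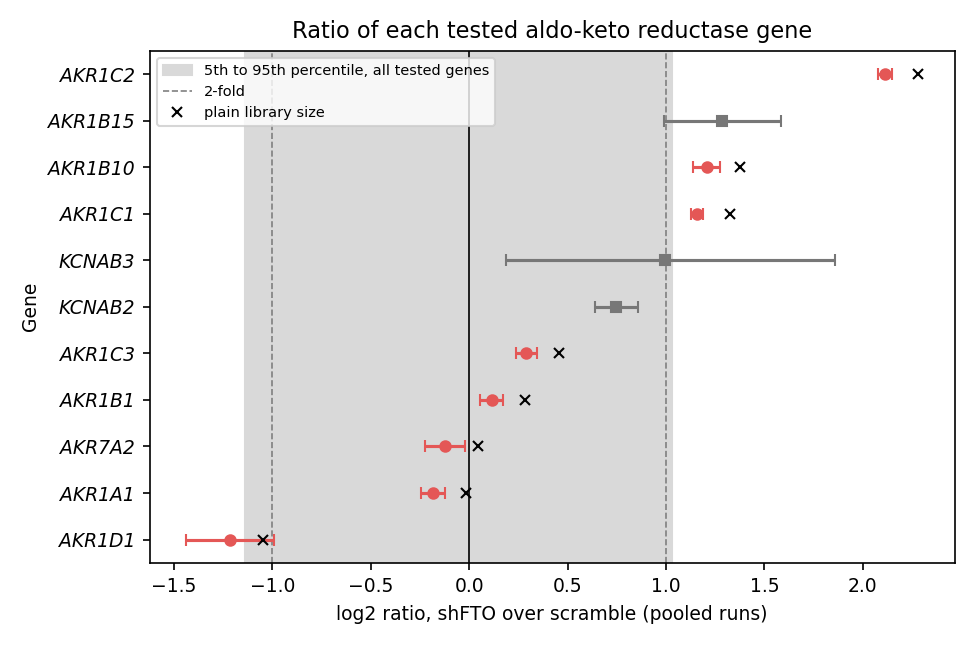
log2 ratio of shFTO over scramble for the 8 tested members (red circles) and 3 further genes of the family (grey squares), with exact 95% counting intervals. The shaded band holds the 5th to 95th percentile of all tested genes (-1.14 to 1.03), and crosses give the members' ratios under plain library size, where AKR7A2 crosses 0.

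Of 9 further genes of the family, 3 had reads enough to be tested, and each was higher in shFTO. Besides AKR1B15, these were KCNAB2, a potassium channel beta subunit with an aldo-keto reductase fold, with a ratio of 1.68 (1.56 to 1.81), and KCNAB3, with 19 reads in scramble against 43 and a ratio of 1.995 (1.14 to 3.63). AKR7L and KCNAB1 had fewer than 20 reads in each group, and AKR1E2 and the pseudogenes AKR1C6P, AKR1C8P and AKR7A2P1 had none.

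Genes around the members' reactions were read from lists, with the number at least 2-fold and at least 1.5-fold changed. Of all tested genes, 11.4% rose by at least 1.5-fold and 13.4% fell by as much. No list was tested as a set.

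Bile acid synthesis genes, the pathway of AKR1D1, lay on the lower side. Of 11 tested, none was 1.5-fold higher, 4 were 1.5-fold lower and 3 of these were 2-fold lower, with a median log2 ratio of -0.41. ACOX2, a peroxisomal oxidase that shortens the side chain of bile acid precursors, was 2.71-fold lower (2.41 to 3.05). SLC27A5, a bile acid CoA ligase, was 1.51-fold lower. CYP8B1, the hydroxylase that makes cholic acid, went from 106 to 11 reads and BAAT, which joins bile acids to amino acids, from 184 to 28 reads. CYP7A1, the rate-limiting enzyme of the pathway, had too few reads to be tested, with 3 in scramble and 13 in shFTO, a ratio of 3.82 (1.05 to 20.9) on the higher side. CYP7A1, CYP8B1 and BAAT fall outside the naming rule and were picked with their values in view.

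Of 19 tested steroid hormone enzymes outside the family, 1 rose and 5 fell by at least 1.5-fold, with a median of -0.23. At 2-fold the counts were 1 and 1. Both past 2-fold had few reads: SULT1E1, an oestrogen sulfotransferase, had 10 reads in scramble and 27 in shFTO, and CYP11A1, which begins steroid synthesis, had 33 and 12. They too were picked with their values in view. HSD17B11, a further hydroxysteroid dehydrogenase, was 1.97-fold lower (1.87 to 2.08) and UGT2B7, a glucuronosyltransferase of steroids, 1.66-fold lower.

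Carbonyl reductases of other families, which act on some of the same substrates, had 20 tested genes, 1 of them higher by at least 1.5-fold and 6 lower by as much. PTGR1, which reduces reactive alkenals and oxidized prostaglandins, was the higher one, with a ratio of 2.74 (2.58 to 2.92). DHRSX, DHRS1 and the retinal reductase RDH11 were 1.79, 1.71 and 1.67-fold lower. The median of the list was -0.26.

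Many aldehyde dehydrogenases oxidize aldehydes, among them some that the members reduce. Of 17 tested, 8 were at least 1.5-fold higher, 4 of these at least 2-fold, and 3 at least 1.5-fold lower, with a median of 0.15. ALDH1A1, which makes retinoic acid from retinal, rose from 782 to 3369 CPM, a ratio of 4.31 (4.25 to 4.36). ALDH2, the mitochondrial enzyme of acetaldehyde oxidation, had a ratio of 2.13 (2.08 to 2.19) and ALDH3B1 one of 1.74. The other 2 past 2-fold had few reads and were picked with their values in view, ALDH8A1 with 56 reads in scramble and 246 in shFTO and ALDH1A2 with 8 and 27. ALDH4A1 and ALDH18A1, enzymes of proline metabolism, were 1.73 and 1.66-fold lower.

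All 9 tested genes of polyol, fructose and methylglyoxal metabolism had ratios under 1, with a median log2 ratio of -0.51. TKFC, which phosphorylates glyceraldehyde, was 2.103-fold lower, and GLO1 and HAGH, the glyoxalases, were 1.59 and 1.56-fold lower. AKR1B1, whose product enters this pathway, had a ratio above 1, as given with its counts. Among 8 genes of glucuronate metabolism, UGDH, which makes UDP-glucuronate, had a ratio of 1.99 (1.95 to 2.03), and no other passed 1.5-fold.

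The list of NRF2 targets outside the family had 29 tested genes, 7 at least 1.5-fold higher, 3 of them at least 2-fold, and 1 at least 1.5-fold lower, with a median of 0.23. ABCC3, an efflux pump for conjugates, had a ratio of 2.69 (2.55 to 2.84), EPHX1, an epoxide hydrolase, 2.19 (2.103 to 2.28), and SLC48A1, a haem transporter, 2.08 (1.82 to 2.36). SLC7A11, the cystine transporter, was 1.75-fold lower (1.56 to 1.97). The list overlaps those of glucuronate metabolism and carbonyl reductases. Of 14 regulators of NRF2, SQSTM1, an adaptor that binds KEAP1, had a ratio of 1.90, while MAFF, BTRC and NFE2L1 were 2.28, 1.56 and 1.52-fold lower. NFE2L2, which encodes NRF2, had a ratio of 1.14 and its inhibitor KEAP1 one of 1.15, both added with their values in view.

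**Figure D5:**
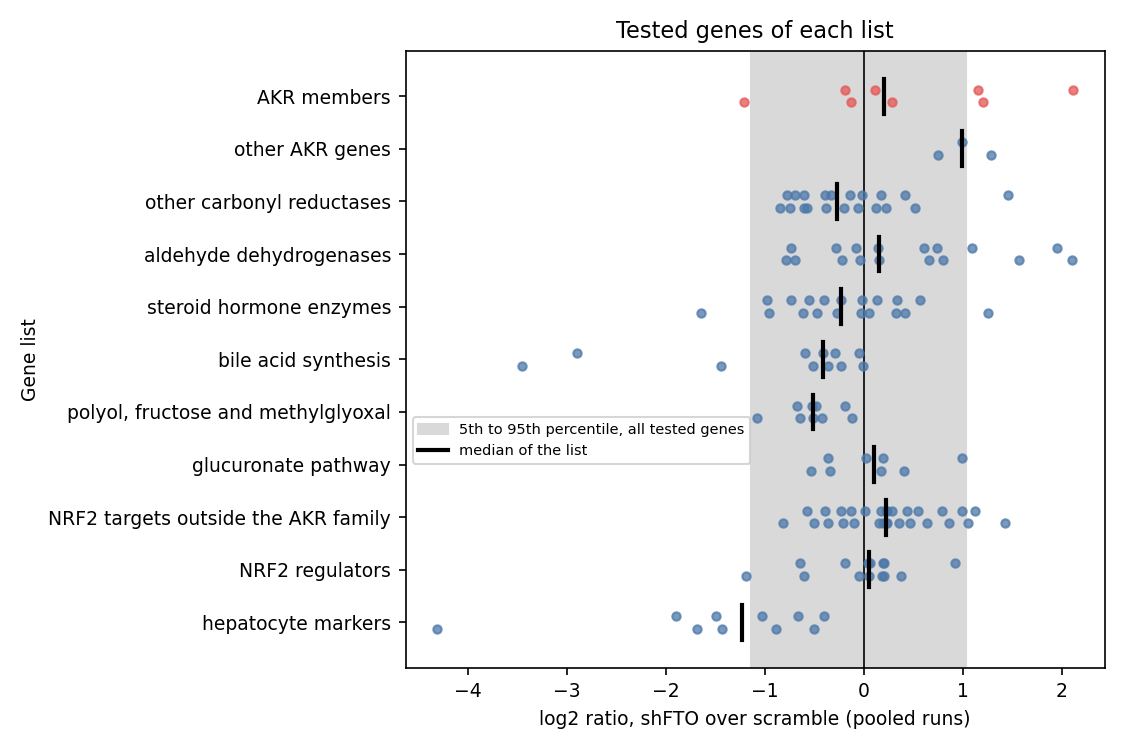
log2 ratio of shFTO over scramble for each tested gene of the members (red) and of 10 lists (blue), with the median of each as a black bar and the 5th to 95th percentile of all tested genes shaded. The members spread from -1.21 to 2.11, and the hepatocyte markers lie wholly below 0, with a median of -1.22.

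Markers of the hepatocyte differed between the groups alongside the members. All 10 hepatocyte markers were expressed and all 10 were lower in shFTO, 6 of them at least 2-fold, and their summed level was 42260 to 42320 CPM in scramble and 18400 to 18470 CPM in shFTO. ALB was 3.20-fold lower, AHSG 3.71-fold and TTR 19.8-fold. In bulk RNA, fewer cells of a kind and less RNA per cell cannot be told apart. The 6 fibroblast markers summed to 23.1 to 23.7 CPM in scramble and 6.44 to 7.06 CPM in shFTO, with no read of 3 of the 6 (COL3A1, DCN and LUM). Of the others, PDGFRB fell from 889 to 157 reads, COL1A1 rose from 5 to 135 reads, and COL1A2 had 0 and 1. The 5 endothelial markers summed to 1.06 to 2.19 CPM, the 5 leukocyte markers to 0.774 to 1.69 CPM and the 5 squamous and intestinal markers to 0.0467 to 0.273 CPM over all runs, with PECAM1, KDR, PTPRC, CD3E, MS4A1, KRT5 and KRT14 at 0. The part of the hepatocyte markers' difference in the members' ratios was not tested.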

How the data were processed

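Read counts per gene were deposited by the authors as 4 tables, 2 per group. Alignment with TopHat2 2.1.1 to hg19 and counting with HTSeq 0.6.0 are named in the submitters' processing notes. The annotation release, strand setting and read length are not given in the sources used here. Of 62893 Ensembl genes, 51226 were given a symbol. TMM scaling, filterByExpr and the quasi-likelihood test were run in edgeR 4.0.16 (R 4.3.3) on all genes, with calls at a Benjamini-Hochberg adjusted p of 0.05, and DESeq2 1.42.0 was an alternative. The test was also run on simulated counts with sampling noise alone, which cannot show how it does with differences between cultures. Ratios came from summed runs. Beside the members, FTO and flanking genes, up to 3 genes each way were named per list, by the largest ratio where the mean reached 5 CPM and the change 1.5-fold. The members and lists were chosen with earlier results of these data known, and some genes of the lists are not reported here. Coding sequences were taken from GENCODE 29 and upstream sequences from RefSeq (GRCh38.p14), and no coordinate was converted to hg19. Other scalings, no count filter, summed copies, a replicate block and each run left out in turn were tried. In these libraries 3 reads correspond to 0.137 to 0.159 CPM.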

Additional observations from a re-analysis of the deposited data

How the results depend on the processing

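With 1 sample per group after pooling, no value has a biological error, and depth limits AKR1C4 and AKR7A3. The members at least 2-fold higher stayed at 3 and those lower at 1 under every scaling, without a count filter and with each run left out. With AKR1C1 to AKR1C4 or AKR1C1 and AKR1C2 summed, 2 features were at least 2-fold higher. With plain library size edgeR called 1 member lower in place of 3, AKR1A1 and AKR7A2 losing their calls, and the log2 ratio of AKR7A2, alone or with AKR7A3, turned from -0.12 to 0.045. That scaling moved the median log2 ratio of all tested genes from 0.009 to 0.177, and the shares called from 33.2% higher and 33.4% lower to 48.7% and 22.1%. Upper quartile scaling gave 37.8% and 30.1%. AKR7A2 also lost its edgeR call with upper quartile scaling, with no count filter, without scramble replicate 1 and without shFTO replicate 1, so that 2 to 3 members were called lower with a run left out. Calls of all genes, 4576 higher and 4594 lower, fell to 3256 and 3624 with DESeq2, which called 4 members higher and 2 lower, AKR1B1 and AKR7A2 losing their calls. AKR1C4 and AKR7A3, with few reads, changed direction between settings.

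A fit with the replicate number as a replicate block called 5 members higher and 3 lower, as without it. Deviations of same-numbered runs had a correlation of 0.016 over 10223 genes. The runs of a group differed by no more than sampling noise, so this value cannot tell whether the numbers pair the runs.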
